A study of Mus musculus with 4 samples.

Results

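The oncofetal let-7 targets are 9 genes known as targets of let-7 and for roles in embryonic growth or tumours: Hmga1, Hmga2, Lin28a, Lin28b, Igf2bp1, Igf2bp2, Igf2bp3, Trim71 and Nras. They were followed here on mouse gene expression arrays, where a probe belonged to the set when the array's own gene name was one of these names, with Lin28 read as Lin28a. This gave 18 of the array's 41174 probes, which cover 8 of the 9 genes, on an array where 19885 genes could be given a symbol. No probe carried the name Trim71, the gene of a ubiquitin ligase of early embryos, and that gene is not analysed here.

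let-7 is a family of small RNAs that bind messenger RNAs by base pairing of their seed and lower the stability and translation of those transcripts. Like other microRNAs it is cut from a hairpin precursor, which Exportin-5 carries from the nucleus to the cytoplasm, where Dicer makes the mature form. Mature let-7 rises as cells differentiate, and the 9 genes are among the transcripts known to be held down by it. LIN28 proteins bind the let-7 precursor and block its maturation, so that the pathway contains a mutual repression.

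The samples were wild type primary embryonic fibroblasts of C57BL/6 mice, which are cultured connective tissue cells. One group had received siRNA against Exportin-5 (gene symbol Xpo5) and the other negative control siRNA, each at 60 nM. All cells were kept for 12 h after the first transfection, starved in medium with 0.2% serum for 48 h, and refed with 20% serum for 24 h along with a second transfection. There were 2 samples per group, 1 from each of 2 independent experiments, and every sample was read on a 1-colour array of its own. The comparison asks whether targets of let-7 become more abundant when the exporter of microRNA precursors is depleted. The level of let-7 itself was not measured on these arrays. Nothing in the labels tells if the experiments came from separate embryos, and the p values therefore cover only the variation among these 4 arrays, part of which may be technical.

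Signals are given as log2 of the scanner's processed signal minus the 75th percentile of the array, so that 0 is the 75th percentile. Differences are Xpo5 siRNA minus control siRNA on that log2 scale. Between 62.4% and 65.0% of the spots of an array were well above background. Having only 2 arrays in a group limits how precise any value here can be. The main Xpo5 probe, at 46378755 to 46378814 of chromosome 17 on mm9, gave -1.95 and -1.93 with Xpo5 siRNA and 1.31 and 1.26 with control siRNA. Its difference of -3.23 ± 0.14 (SE, n = 2) had a limma adjusted p of 0.0654 over all 25641 probes tested, 0.0106 when each gene was represented by 1 probe, and 0.0414 with the replicate number as a block. The remaining Xpo5 signal at this probe was 10.7% of the control. The other Xpo5 probes stood at -3.08 ± 0.21 and -1.34 ± 0.45 (SE, limma adjusted p = 0.178 and 0.425), and the fourth was well above background on 1 array and not tested.

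The seed of a microRNA, its bases 2 to 8, decides most of its targets. The guide strands below show why let-7 members are expected to share targets, with the seed in capitals. Sequences are from RefSeq on GRCm38.p6, where 11 different guide sequences of let-7 and miR-98 were found, 10 of them with the seed of let-7a and 1, let-7j, with another.
mmu-let-7a-5p: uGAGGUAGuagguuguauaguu
mmu-let-7g-5p: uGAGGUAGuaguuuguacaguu
mmu-let-7i-5p: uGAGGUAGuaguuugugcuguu
mmu-miR-98-5p: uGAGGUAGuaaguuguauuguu
mmu-let-7j: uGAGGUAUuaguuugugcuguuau
The let-7a copy shown lies on chromosome 13 at 48538239 to 48538260, let-7g on chromosome 9 at 106178846 to 106178867, let-7i on chromosome 10 at 122985698 to 122985719, miR-98 on chromosome X at 151913229 to 151913250 and let-7j on chromosome 3 at 140028281 to 140028304.

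The array probes are 60 bases long and carry the sense sequence of the transcript. The complement of the shared seed, CTACCTC, was searched in this sense strand and occurs in 126 of the 41174 probes, or 0.306%, against 113 probes for the same letters on the other strand. It occurs in 2 of the 18 probes of the set. The stretch of 30 bases around each match is shown because these probes read the transcript at the place where a let-7 guide can pair, with the match in capitals.
Hmga2 probe at 3708: gtacaatcaaaacacactaCTACCTCttaa
Igf2bp1 probe at 7387: tggttttaatCTACCTCttagcaaaacaat
The Hmga2 match lies on the minus strand of chromosome 10 at 119798748 to 119798754 of mm9. Pairing runs without a gap from base 2 over 11 bases of let-7g and let-7i and over 10 bases of let-7a. The Igf2bp1 match lies on the minus strand of chromosome 11 at 95819455 to 95819461 of mm9, where the pairing from base 2 ends after 7 bases for each of the 10 guides. A match is a description of the letters and not evidence of binding.

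Of the 8 genes with probes, 6 were well above background and 2 were not. All 14 probes of Hmga1, Hmga2, Igf2bp1, Igf2bp2, Igf2bp3 and Nras were well above background on all 4 arrays, so that the filter on dim probes removed none of them. The 4 probes of Lin28a and Lin28b were left out of the test by that filter.

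**Figure D1:**
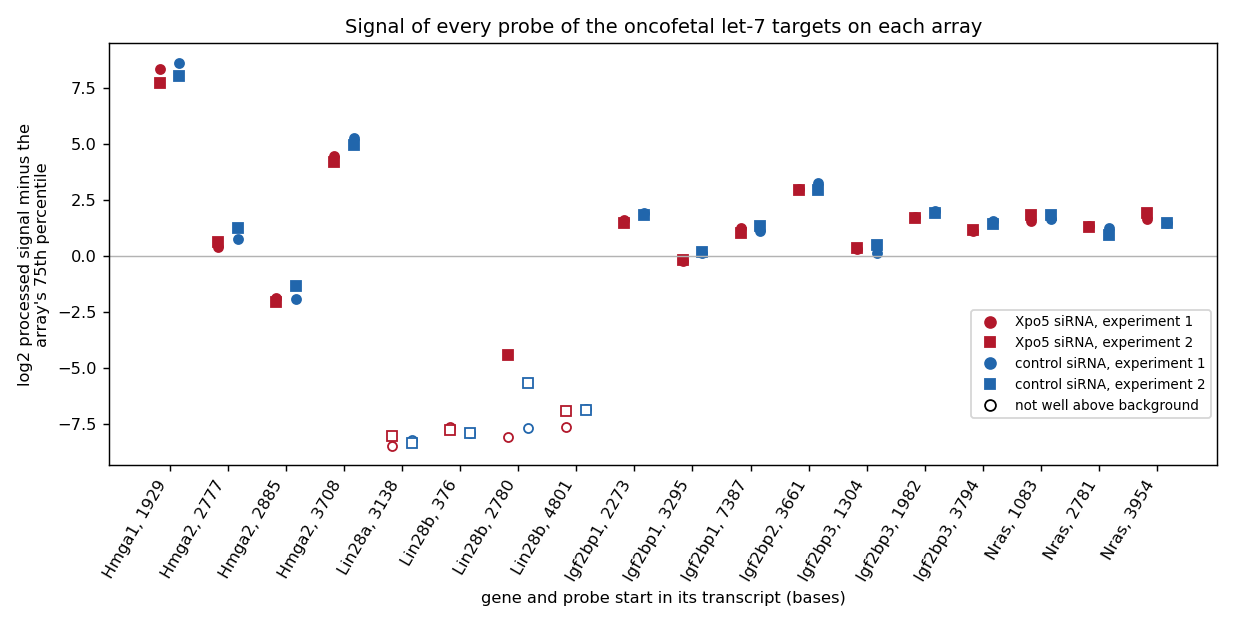
Log2 processed signal minus the 75th percentile of the array (vertical axis) for the 18 probes of the set, named by gene and by the base of the transcript at which the probe starts. Circles and squares are experiments 1 and 2, red is Xpo5 siRNA, blue is control siRNA, and open symbols are not well above background. The Lin28a and Lin28b probes lie between -8.47 and -4.38, with 1 filled symbol among them.

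None of the 14 tested probes passed limma at an adjusted p under 0.05, where 0% of all probes tested passed (0 of 25641, against 2787 at an unadjusted p under 0.05). Their adjusted p values went from 0.334 to 0.972. The differences ran from -0.77 to 0.30 with a median of -0.26, against a median of 0.01 over all probes tested. They were negative for 11 probes and positive for 3, while 48.2% of all probes were negative. The 14 probes belong to 6 genes, and probes of 1 gene are not independent, so that these counts are descriptive. At an unadjusted p under 0.05 there were 2 lower probes, where 4.59% of all probes were as low, and 0 higher ones, where 6.28% were. With the replicate number as a block, 5 member probes were lower at an unadjusted p under 0.05, where 9.96% of all probes were, 0 were higher, where 13.4% were, with 23.4% of all probes in either direction. The 5 lower ones were probes of Hmga2, Igf2bp1 and Igf2bp3. After adjustment 0 member probes passed with the block, where 0.0156% of all probes did. Without the block 10.9% of all probes had such a p in either direction. The group values did not overlap for 6 probes that were lower with Xpo5 siRNA, against 21.7% of all probes, and for 2 that were higher, against 21.5%. With 2 arrays a group the smallest exact permutation p for a single value is 0.333, so that none was run.

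A rise of a given size can be read against the intervals. The 95% interval of the difference reached at most 0.73, or 1.66-fold, which was the upper end for the most distal Nras probe. For 2 probes, 1 of Hmga2 and 1 of Igf2bp1, the interval lay wholly below 0. These intervals are from the fit without the replicate block, which ignores that arrays pair by experiment. With the block the SE was 0.13 against 0.16 at the most distal Nras probe and 0.11 against 0.32 at the Hmga1 probe. No interval was computed with the block.

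**Figure D2:**
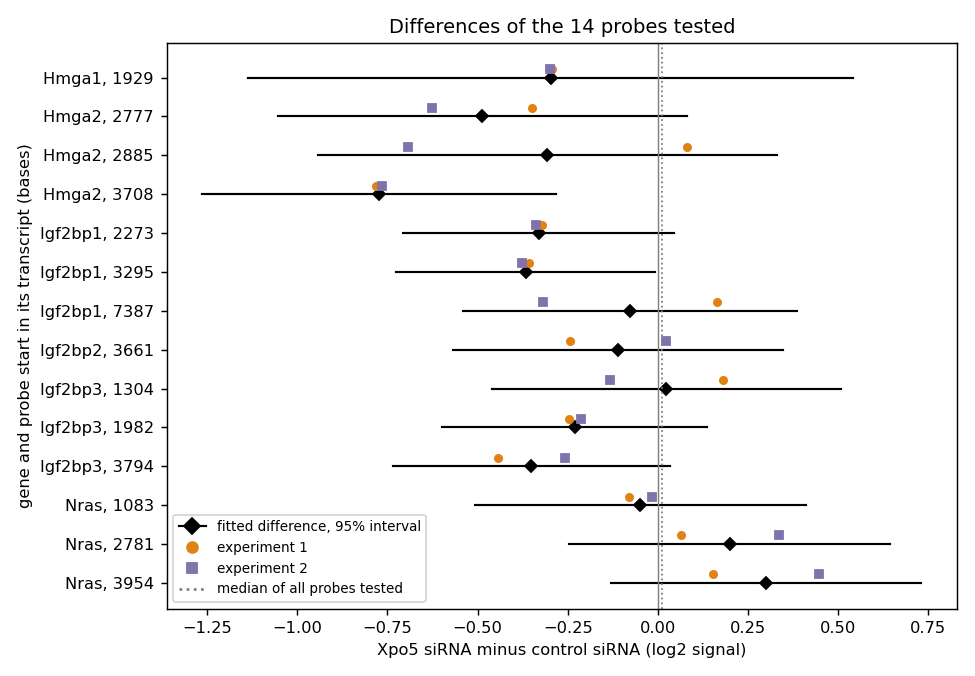
Fitted difference, Xpo5 siRNA minus control siRNA in log2 signal (horizontal axis), with its 95% interval for the 14 probes tested, and the difference within each experiment beside it. The Hmga2 probe at 3708 and the Igf2bp1 probe at 3295 are the ones whose interval stays below 0, and the dotted line marks the median of all probes, 0.01.

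Hmga2 is a small chromatin protein with AT-hook motifs that bends DNA in the minor groove, is abundant in embryonic mesenchyme, and is the textbook target of let-7. Its probe at 3708 of the transcript, on chromosome 10 at 119798739 to 119798798 of mm9, is the one that holds the seed match and gave 4.49 and 4.23 with Xpo5 siRNA and 5.28 and 4.99 with control siRNA. Both Xpo5 siRNA arrays lay below both control arrays. The difference of -0.77 ± 0.19 (SE, n = 2 arrays per group), or 58.5% of the control signal, had a limma adjusted p of 0.334, with a 95% interval from -1.26 to -0.28. It was -0.78 in experiment 1 and -0.76 in experiment 2.

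The Hmga2 probe at 2777 of the same transcript, on chromosome 10 at 119799670 to 119799729 of mm9, gave 0.43 and 0.63 with Xpo5 siRNA and 0.78 and 1.25 with control siRNA. Here too the groups did not overlap, with a difference of -0.49 ± 0.22 (SE, limma adjusted p = 0.510), which was -0.25 without replicate 2 of control siRNA. The third Hmga2 probe was designed on a separate cDNA clone and lies at 119811916 to 119811975. It gave -1.84 and -2.03 with Xpo5 siRNA and -1.92 and -1.34 with control siRNA. At this probe the groups overlapped, the experiments stood at 0.08 and -0.69, and the fitted difference was -0.31 ± 0.24 (SE), or -0.017 without replicate 2 of control siRNA.

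Hmga1, the other AT-hook protein of the family, had 1 probe, on chromosome 17 at 27700543 to 27700602 of mm9. The files list transcripts of the near-identical copy Hmga1b for the same probe, so that the signal of the pair cannot be divided. It gave 8.36 and 7.73 with Xpo5 siRNA and 8.65 and 8.03 with control siRNA. The experiments differed by more than the siRNAs did, with replicate 1 higher than replicate 2 by 0.62 in each group, and the groups overlapped. Within the experiments the difference was -0.29 and -0.30, and the fit gave -0.30 ± 0.32 (SE, n = 2, limma adjusted p = 0.765). The block lowered its adjusted p to 0.216. Within the slides, whose arrays are of different experiments, it was 0.32 and -0.92.

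The IGF2BP proteins bind messenger RNAs, those of Igf2 and Myc among them, and alter their stability, transport and translation. Igf2bp1 had 3 probes on 1 transcript, all on chromosome 11 of mm9. The probe at 2273, at 95824526 to 95824585, gave 1.60 and 1.49 with Xpo5 siRNA and 1.92 and 1.83 with control siRNA. The probe at 3295, at 95823504 to 95823563, gave -0.20 and -0.18 with Xpo5 siRNA and 0.15 and 0.20 with control siRNA. At both probes the groups did not overlap, with differences of -0.33 ± 0.14 and -0.37 ± 0.14 (SE, limma adjusted p = 0.502 and 0.455). The probe at 7387, at 95819412 to 95819471, holds the other seed match and gave 1.28 and 1.03 with Xpo5 siRNA and 1.12 and 1.35 with control siRNA. There the groups overlapped, the experiments stood at 0.17 and -0.32, and the difference was -0.08 ± 0.18 (SE). Both seed-matched probes had negative fitted differences, of unequal size.

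Igf2bp3, which in the adult is best known from tumours and germ cells, also had 3 probes on 1 transcript, on chromosome 6 of mm9. The probe at 3794, at 49035710 to 49035769, gave 1.15 and 1.17 with Xpo5 siRNA and 1.59 and 1.43 with control siRNA. The probe at 1982, which the files place over 49037849 to 49038456, gave 1.78 and 1.72 with Xpo5 siRNA and 2.03 and 1.94 with control siRNA. Neither pair of groups overlapped, with differences of -0.35 ± 0.15 and -0.23 ± 0.14 (SE, limma adjusted p = 0.490 and 0.606). At the probe at 1304, at 49057401 to 49057460, the arrays read 0.31 and 0.38 with Xpo5 siRNA and 0.13 and 0.51 with control siRNA. These overlapped, and the difference was 0.02 ± 0.18 (SE).

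Igf2bp2, the family member that persists in adult tissue, had 1 probe, on chromosome 16 at 22059260 to 22059319 of mm9. It gave 3.03 and 2.96 with Xpo5 siRNA and 3.27 and 2.94 with control siRNA. The groups overlapped and the experiments stood at -0.24 and 0.02, with a fitted difference of -0.11 ± 0.17 (SE, limma adjusted p = 0.838) and a 95% interval from -0.57 to 0.35.

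Nras, a membrane-bound GTPase that relays growth factor signals, had 2 of its 3 probes higher with Xpo5 siRNA. Its probe at 3954, on chromosome 3 at 102871322 to 102871381 of mm9, gave 1.65 and 1.93 with Xpo5 siRNA and 1.49 and 1.48 with control siRNA. The probe at 2781, at 102870149 to 102870208, gave 1.33 and 1.30 with Xpo5 siRNA and 1.27 and 0.96 with control siRNA. At both the groups did not overlap and both experiments were positive, with differences of 0.30 ± 0.16 and 0.20 ± 0.17 (SE, limma adjusted p = 0.578 and 0.706). The first was 0.16 without replicate 2 of Xpo5 siRNA and the second 0.045 without replicate 2 of control siRNA. The probe at 1083, at 102868451 to 102868510, read 1.57 and 1.84 with Xpo5 siRNA and 1.66 and 1.86 with control siRNA, and its difference was -0.05 ± 0.17 (SE).

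**Figure D3:**
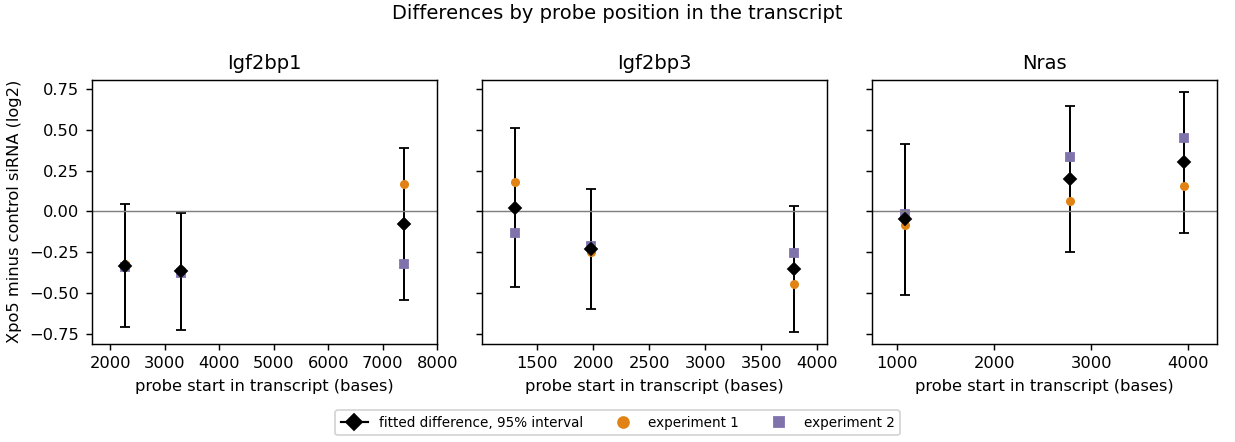
Difference between Xpo5 siRNA and control siRNA (vertical axis, log2 signal) by the start of the probe in the transcript for Igf2bp1, Igf2bp3 and Nras, with 95% intervals and the differences of the 2 experiments. The Nras differences go from -0.05 at the most proximal probe to 0.30 at the most distal one, those of Igf2bp3 from 0.02 to -0.35, and every interval overlaps the others of its gene.

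The probes of 1 gene did not give the same difference between the siRNAs. Along the Nras transcript the difference rose, by 0.25 between the probes at 1083 and 2781 and by 0.10 between those at 2781 and 3954. Along Igf2bp3 it fell, with steps of -0.25 and -0.12 toward the distal end. These are steps in the difference. The signal also changed between probes and did not always move the same way. The Nras probe at 2781 was dimmer than those at 1083 and 3954 on each array. For Nras and Igf2bp1 the spacing of probes by transcript position equals that on the genome, as for 1698 bases between the first Nras probes, so that no intron lies between them. For the first Igf2bp3 probes 678 bases of transcript span 19004 bases of genome. These steps are within the intervals of the probes and were not tested.

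LIN28A and LIN28B are the RNA-binding proteins that block let-7 maturation in stem cells and early embryos. The Lin28a probe gave -8.47 and -8.04 with Xpo5 siRNA and -8.18 and -8.31 with control siRNA, on chromosome 4 at 133559527 to 133559586 of mm9, and was not well above background on any array. The Lin28b probes at 376 and 4801 of its RefSeq transcript, on chromosome 10 at 45140412 to 45140471 and 45096968 to 45097027, were not well above background on any array either. They read -7.77 to -7.64 and -7.64 to -6.92 with Xpo5 siRNA, and -7.90 to -7.89 and -6.87 to -6.81 with control siRNA. The third Lin28b probe, on a separate cDNA clone at 45175317 to 45175376, was well above background on 1 array, replicate 2 of Xpo5 siRNA, with -8.08 and -4.38 with Xpo5 siRNA and -7.67 and -5.68 with control siRNA. A further probe that the files describe as Lin-28 homolog B but name by an Ensembl transcript gave -8.44 and -5.90 with Xpo5 siRNA and -8.09 and -8.18 with control siRNA, well above background on 0 arrays. No fold is given for these probes, since neither group was measured on both arrays.

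**Figure D4:**
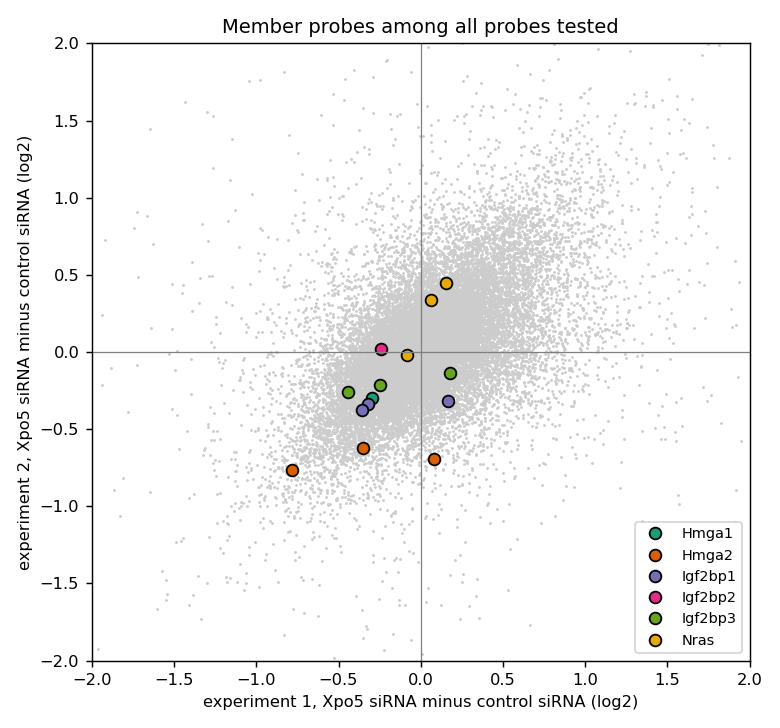
Difference between Xpo5 siRNA and control siRNA in experiment 1 (horizontal axis) and experiment 2 (vertical axis), in log2 signal, for 25629 probes with both values (grey; 112 lie outside the axes) and the 14 member probes (coloured by gene). At the lower left, where both experiments are negative, lie 8 member probes, and in the upper right lie 2, both of Nras.

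Between the experiments, 8 of the 14 probes were lower in both, where 33.7% of all probes were, 2 were higher in both, where 35.9% of all probes were, and 4 had opposite signs. The 4 were the probe of Igf2bp2, the clone probe of Hmga2, the Igf2bp1 probe at 7387 and the Igf2bp3 probe at 1304. These experiments share their arrays with the fit, so that the counts are a description of the same values.

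Other genes described elsewhere as let-7 targets were read from a list of 36, of which 32 were tested at their brightest probe. The median was -0.02, with 17 lower and 15 higher, and in limma 0 passed in either direction. At an unadjusted p under 0.05, 3 were lower and 0 higher, where 4.59% and 6.28% of all probes were. With the replicate number as a block, 7 were lower and 1 higher at such a p, where 9.96% and 13.4% of all probes were. Among the 3 lower without the block were the growth regulator Myc at -0.55 ± 0.16 and the transcription factor gene Plagl2 at -1.03 ± 0.32 (SE, limma adjusted p = 0.385 and 0.395). Next came Cdc25a, a phosphatase that activates cyclin-dependent kinases, at -0.38, and Tgfbr1, a receptor of TGF-beta, at 0.50. The other probes of Myc stood at -0.52 and -0.47, that of Cdc25a at -0.18 and that of Tgfbr1 at 0.58. Of 11 factors that make, tail or use let-7, 0 passed in limma and 0 had an unadjusted p under 0.05, with 6 lower and 5 higher. With the block, 2 of them were lower and 1 higher at such a p. The factors with the smallest p without the block were Ago2, the effector that carries the microRNA, at -0.44, and the genes of the nuclear processor, Dgcr8 at -0.39 and Drosha at -0.26. Their other probes spread widely, with -0.31, 0.048 and -0.19 for Ago2, -0.042 for Dgcr8, and -0.68 and -0.17 for Drosha.

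**Figure D5:**
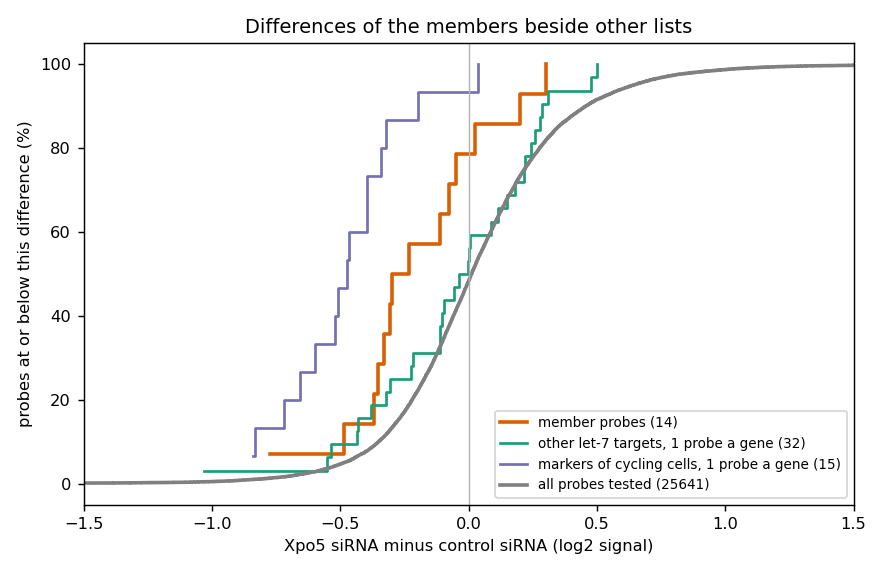
Share of probes at or below a difference (vertical axis, percent) against that difference (Xpo5 siRNA minus control siRNA, log2 signal) for the 14 member probes, the 32 other let-7 targets, 15 markers of cycling cells and all 25641 probes tested. The medians are -0.26 for the members, -0.02 for the other targets, -0.47 for the cycling markers and 0.01 for all probes.

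Marker lists of other cell states were read beside the members. Of 15 markers of cycling cells 14 were lower, with a median of -0.47. The signals of a list were also summed before the log2, so that the brightest markers weigh most. For the cycling markers this gave 7.58 to 7.74 with Xpo5 siRNA and 8.07 to 8.09 with control siRNA. In limma 0 passed, and 9 were lower at an unadjusted p under 0.05, where 4.59% of all probes were. The cyclin gene Ccne2 stood at -0.83, the helicase loader Cdc6 at -0.84 and the helicase subunit Mcm3 at -0.72. Their other probes stood at -0.77 for Ccne2, -0.30 for Cdc6 and -0.40 for Mcm3. All 15 macrophage markers read higher, with a median of 0.66, and none was below the detection filter. The log2 of their summed signals was 6.25 to 6.49 with Xpo5 siRNA and 5.50 to 5.99 with control siRNA. There 0 passed in limma and 9 were higher at an unadjusted p under 0.05, where 6.28% of all probes were, among them Laptm5 at 0.87, C1qa at 0.89 and C1qb at 0.71. The part of cycling cells or macrophages in the members' values was not tested. In these bulk samples fewer cells of a type and less RNA per cell cannot be told apart.

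All 10 fibroblast markers were tested. The log2 of their summed signals was 11.17 to 11.25 with Xpo5 siRNA and 10.92 to 11.06 with control siRNA. All 15 macrophage markers passed the same filter, so that passing it does not by itself give the cell type. Of the 10 fibroblast markers 7 were higher and 3 lower, with a median difference of 0.06. Those with the smallest p were S100a4 at 0.47, Lum at 0.43 and Col1a2 at 0.28, all among the higher ones. In limma 0 fibroblast markers passed the adjusted threshold. At an unadjusted p under 0.05 there was 1 higher, where 6.28% of all probes were, and 0 lower, where 4.59% were. Of 8 pluripotent and germ cell markers with probes, 3 were tested and 5, Pou5f1, Sox2, Zfp42, Tdgf1 and Dazl, did not pass the filter. The defining markers Pou5f1 and Sox2 were well above background on 0 arrays. The 3 tested stood at 0.46 for Ddx4, -0.66 for Utf1 and -0.04 for Dppa5a. In limma 0 passed the adjusted threshold and 1, Ddx4, had an unadjusted p under 0.05. Ddx4 was well above background only on the Xpo5 siRNA arrays, and Utf1 was so on both arrays only in the control group. Each thus entered the test through the group where it was higher, so that its difference or p is no evidence of a change.

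The pattern of the brightest Hmga2 probe over the 4 arrays was set against that of the brightest probe of each of 13915 other genes, each centred on its own mean. The nearest by Euclidean distance were Trip13 at 0.0235, Ippk at 0.0528 and Inha at 0.0529 log2 units, with differences of -0.77, -0.80 and -0.79. With 4 arrays such nearness says only that these values lie close together.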

How the data were processed

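Per the labels' protocols, RNA of 4 samples was labelled with Cy3 for 1-colour Agilent arrays. The deposited intensity of each spot is the processed signal of Agilent Feature Extraction 10.5.1.1, background-subtracted and detrended, per the file headers, which place probes on mm9. The deposited series table holds log2 values with a median of 5.33 on every array. For 99.9% of probes they equal log2 of that signal plus 1 constant an array, within 0.001. Its genes were not centred. The deposited flags for background and outlier spots are marks of 0 or 1 by the same software.

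Spots marked as outliers, 77 to 134 of 43379 per array, were dropped (0 spots were saturated). Repeat spots were averaged as log2, and each array's 75th percentile over its probes was subtracted. The test covered the 25641 of 41174 probes with a signal well above background on both arrays of 1 or both groups. Groups were compared per probe in limma 3.58.1 under R 4.3.3 (lmFit, eBayes, two-sided, Benjamini-Hochberg over all tested probes at 0.05), without a block.

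Symbols came from the RefSeq table of GRCm38.p6, by accession for 26682 probes, by symbol for 5195 and by synonym for 951, with 8346 unmatched. Lists used the brightest tested probe of a gene. The named genes are every member and Xpo5, the 5 and 3 genes of smallest p among the other let-7 targets and the let-7 factors, 3 from each marker list and the 3 nearest to Hmga2. A gene that this rule names is not reported here. The members and lists were chosen with earlier results of these data known.

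A replicate number was taken to mark 1 of the 2 experiments of the series text, which the labels do not state outright. Arrays of the same number deviated from their group means together (r = 0.515 over 25629 probes, which are not independent replicates). Each slide held 1 array of each group, of different replicate numbers.

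The alternatives were quantile and median scaling, normexp background correction, other filters and choices of probe, an intensity trend, the replicate number or slide as a block, each array left out, and the deposited log2 table.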

Additional observations from a re-analysis of the deposited data

How the results depend on the processing

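No member probe, other let-7 target or let-7 factor passed in limma under any of the 16 alternatives, and over these the adjusted p values of member probes went from 0.102 to 1.00. The median of the member probes, -0.26, was -0.76 with normexp, which gave the median of all probes as 0.41, a shift of 0.39, and -0.37 with median scaling, a shift of -0.11 for all probes. Relative to all probes it was -1.17 and -0.28, against -0.28 in the fit reported. A repaired normexp that left out spots with uneven background, chosen after seeing the data, gave -0.17. Of 202 recomputed member values 187 kept their sign. The rest were Igf2bp3 at 1304, which turned to -0.082 with median scaling and with the deposited table, Nras at 2781 and 3954, Hmga2 at 2885 and Igf2bp1 at 3295, which turned to -0.42, -0.48, 0.41 and 0.024 with normexp, and 5 probes with 1 array left out. Those went from -0.61 to 0.015 for Hmga1, from -0.27 to 0.053 for Igf2bp2, from -0.20 to 0.047 for Igf2bp1 at 7387, from -0.16 to 0.21 for Igf2bp3 at 1304 and from -0.18 to 0.085 for Nras at 1083. With their sign kept, Hmga2 went from -0.72 to -0.25 at 2777 and from -0.60 to -0.017 at 2885, and Nras from 0.045 to 0.35 at 2781 and from 0.16 to 0.44 at 3954. The probes called over the whole array, 0, were 10 with median scaling and with the deposited table, 1 with repaired normexp, with the mean of a gene's probes and with an intensity trend, 3 with 1 probe a gene, 4 with the replicate block, and 0 to 57 with 1 array left out, the lone array being assumed to vary like the others. Without replicate 1 of control siRNA 36 were called and without replicate 2 of control siRNA 57. Xpo5 passed with median scaling at -3.33, repaired normexp at -2.81, the deposited table at -3.33, and 1 probe a gene, the trend or the replicate block at -3.23, and stood between -3.25 and -3.20 with 1 array left out, where its adjusted p was 0.0433 to 0.173 and passed without replicate 1 or replicate 2 of control siRNA. Planned normexp gave it as -2.08 (adjusted p = 0.594) and the mean of its probes as -2.55 (adjusted p = 0.148). Under the block no member and no gene of the lists passed. The causes were not tested. The median SE of a difference over all probes, 0.177 on the log2 scale, limits what 4 arrays can show.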

Other observations

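The search for let-7 seed matches was extended to the array, with probes taken by their letters and not by the member list. The member probes that hold a match are included, and a match need not be a let-7 site. Of the 126 probes whose 60 bases hold CTACCTC, 91 were tested, or 0.355% of all probes tested. Their median difference between Xpo5 siRNA and control siRNA was 0.09 on the log2 scale, against 0.01 over all probes, and 59 of them were higher and 32 lower, or 64.8% higher where 51.8% of all probes were. In limma 0 passed an adjusted p of 0.05, while 13 higher and 4 lower had an unadjusted p under 0.05, where 6.28% of all probes were higher and 4.59% lower at that p. The median was 0.14 in experiment 1 and 0.04 in experiment 2. For the 28 tested probes in which the match is followed by A the median was 0.05, with 17 higher. For the 64 tested probes with the same letters on the other strand, GAGGTAG, it was also 0.05, with 38 higher. At an unadjusted p under 0.05 in limma, 3 of the 28 were higher and 1 lower, and 6 of the 64 were higher and 3 lower. Relative to all probes the median of the 91 was 0.08 in the fit reported, 0.05 with quantile normalization, 0.18 with planned normexp and 0.04 with repaired normexp. It was 0.01 without replicate 1 of control siRNA and 0.16 without replicate 2 of control siRNA. These probes were also dimmer than all probes tested, with a median log2 level of -1.70 against -0.88. Whether level or siRNA carries the small shift was not tested.

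Among these 91 probes, most of those with the smallest p were higher and some lower, and the genes named here were chosen after their values were seen. Asic3, an acid-sensing ion channel gene, gave -2.65 and -2.54 with Xpo5 siRNA and -3.78 and -4.55 with control siRNA, and Abi3, a regulator of the actin cytoskeleton, gave -1.99 and -2.03 with Xpo5 siRNA and -3.07 and -3.99 with control siRNA. In each the groups did not overlap, with differences of 1.57 and 1.52 (limma adjusted p = 0.319 and 0.320). H19, a noncoding RNA of fetal tissue that is known to bind let-7, gave 5.68 and 5.58 with Xpo5 siRNA and 5.10 and 4.94 with control siRNA, a difference of 0.61 (limma adjusted p = 0.337). The Hmga2 probe described above was the member of the set with the smallest p among the 91 and one of the lower ones, as was Tbrg4 at -0.55. Also higher were AK030271 at 0.72, Abcb9 at 0.63 and Slc17a9 at 0.60, of which AK030271 and Abcb9 had a smaller p in limma than H19.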
